A study of Mus musculus with 12 samples.

Results

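The beta subunits of the sodium-potassium pump and the small Fxyd proteins that regulate it were represented by 7 genes, Atp1b1, Atp1b2, Atp1b3, Fxyd1, Fxyd2, Fxyd6 and Fxyd7. They were found by gene symbol among the 24490 genes of the expression table, and all 7 were listed once and reached a mean of 1 FPKM in every comparison. FPKM is the number of fragments per kilobase of transcript, scaled to the mapped fragments of the sample, so levels of different genes can be set side by side. The study asked which genes are expressed by nociceptors, the sensory neurons of small diameter that respond to damaging stimuli. RNA was sequenced from dorsal root ganglia (DRG), which hold the cell bodies of sensory neurons together with satellite glia, Schwann cells and other cells. All mice were adult male C57Bl/6 animals with no genetic change and no treatment given in life, and ganglia of all spinal levels were taken. Intact DRG (4 samples of 1 mouse each) were frozen whole. Unsorted DRG (4 samples of 2 mice each) were dispersed for 30 min with dispase, collagenase and DNAse and then frozen. MACS-sorted DRG (4 samples of 8 mice each) were dispersed in the same way and then passed through a magnetic column that held back cells bound by a cocktail of antibodies against non-neuronal cells. The sort removes other cells rather than capturing nociceptors, so what was sequenced is whatever ran through the column.

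The sodium-potassium pump moves sodium ions out of the cell and potassium ions in against their gradients, at the cost of ATP, and thereby maintains the ion gradients on which the resting potential and action potentials of neurons rest. A pump consists of a catalytic alpha subunit and a glycosylated beta subunit, which is needed for folding and for delivery to the plasma membrane. Fxyd proteins are short membrane proteins that bind the pump and alter its affinity for ions or its turnover in a manner that depends on the cell type. In ganglia, pumps of glial cells also take part in clearing the potassium that active neurons release.

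The Fxyd family is named after a signature of phenylalanine, any residue, tyrosine and aspartate, which stands in the protein shortly before the membrane span. The coding sequence around this signature is shown for the Fxyd genes because it is the feature that makes them one family, whereas their levels differed widely below. Each line gives 75 bases of the coding strand, 5′ to 3′, with the codons of the signature in capitals, from GENCODE M21 transcripts of mm10. In the genome the stretches are interrupted by introns and span chr7:31053434-31054306 (Fxyd1, minus strand), chr9:45408111-45408340 (Fxyd2, plus strand), chr9:45390639-45390817 (Fxyd6, plus strand) and chr7:31044987-31051359 (Fxyd7, minus strand).
Fxyd1: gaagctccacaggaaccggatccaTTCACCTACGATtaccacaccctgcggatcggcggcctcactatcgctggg
Fxyd2: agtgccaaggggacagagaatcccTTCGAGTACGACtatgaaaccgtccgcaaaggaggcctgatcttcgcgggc
Fxyd6: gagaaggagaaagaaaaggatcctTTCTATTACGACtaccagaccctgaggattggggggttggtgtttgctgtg
Fxyd7: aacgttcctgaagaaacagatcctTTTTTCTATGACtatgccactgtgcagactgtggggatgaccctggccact

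The signature lay at codons 29 to 32 of 92 in Fxyd1, 17 to 20 of 64 in Fxyd2, 29 to 32 of 94 in Fxyd6 and 18 to 21 of 80 in Fxyd7. An in-frame match on the coding strand was present in 8 of 1420 genes with a coding sequence of at most 300 bases, and 6 of these 8 were Fxyd genes. Over coding sequences of any length it was present in 647 of 21537 genes. From the first base of the signature on, Fxyd1 and Fxyd6 shared 34 of 51 bases, Fxyd1 and Fxyd2 32 bases, and Fxyd1 and Fxyd7 26 bases. Over the aligned coding sequences the Fxyd pairs were identical at 59.6% to 65.6% of bases. The beta subunit pairs were identical at 59.2% to 62.0% of bases, with coding sequences of 912 bases for Atp1b1, 870 for Atp1b2 and 834 for Atp1b3.

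Some properties of the libraries touch the values below. Counts of fragments were not used here, and the most common ratio between the low values of a sample and those of intact replicate 2 put the relative depth of the 12 samples between 0.737 and 1.06, where intact replicate 2 is 1. Intact replicate 1 stood apart from the other intact samples, with a median absolute log2 difference of 0.302 to 0.353 from them against 0.0620 to 0.0802 among them. The sum over 8 skeletal muscle markers was 2758 FPKM in this sample and 15.9 to 64.2 FPKM in the other intact samples. Haemoglobin genes took 5.14% and 7.13% of the summed FPKM in MACS-sorted replicates 3 and 4, 0.681% and 0.865% in replicates 1 and 2, and at most 0.259% in the other samples. Unsorted replicates 1 and 2 were the closest pair of samples within a group, with a median absolute log2 difference of 0.0288, and were kept as 2 samples. Whether they come from the same pool of mice could not be told from FPKM alone. The study describes the samples of a group as biological replicates, each of 1, 2 or 8 mice depending on the group. The number of mice per sample thus cannot be separated from the group. Each p-value sets the difference between groups against the spread between the samples of a group.

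The 7 genes together took 0.523% to 0.571% of the summed FPKM in the intact samples, 0.493% to 0.536% in the unsorted and 0.677% to 0.846% in the MACS-sorted samples. In intact DRG the order of mean levels was Fxyd2 (791 FPKM), Atp1b1 (387 FPKM), Atp1b3 (191 FPKM), Fxyd7 (134 FPKM), Fxyd1 (69.2 FPKM), Fxyd6 (55.3 FPKM) and Atp1b2 (24.1 FPKM), and of the neighbours in this order only Fxyd1 and Fxyd6 had overlapping samples. In unsorted DRG, Atp1b1 came first at 597 FPKM, followed by Fxyd2 at 494, Fxyd7 at 188, Atp1b3 at 183, Fxyd1 at 53.4, Fxyd6 at 36.1 and Atp1b2 at 33.1 FPKM. There the samples of Fxyd7 and Atp1b3 overlapped, as did those of Fxyd6 and Atp1b2. In MACS-sorted DRG the order was Fxyd2 (1596 FPKM), Atp1b3 (310.5 FPKM), Atp1b1 (255 FPKM), Fxyd6 (49.2 FPKM) and Fxyd7 (35.4 FPKM), with Atp1b3 overlapping Atp1b1 and Fxyd6 overlapping Fxyd7. Atp1b2 and Fxyd1 were last in that group, at 0.443 to 1.43 FPKM and from a listed 0 to 3.10 FPKM. Among all genes of the table, Fxyd2 ranked 5th, 4th, 8th and 9th by FPKM in MACS-sorted replicates 1 to 4, against 46th to 57th in unsorted and 15th to 25th in intact DRG.

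**Figure D1:**
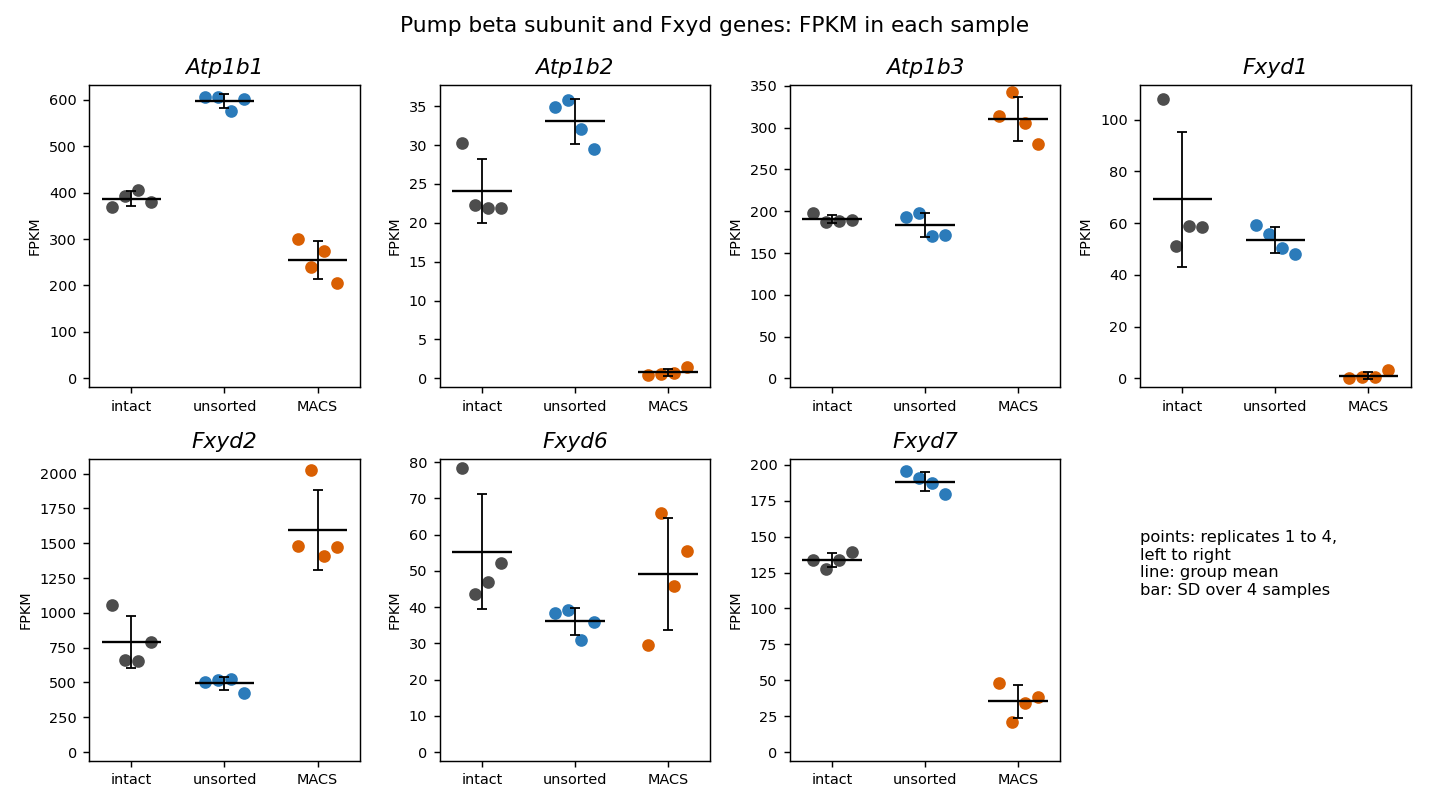
FPKM of the 7 genes (vertical axes, linear, one scale per gene) in intact, unsorted and MACS-sorted DRG, with replicates 1 to 4 as points from left to right, the mean as a line and the SD as a bar. Atp1b3 and Fxyd2 were highest in the MACS-sorted samples, Atp1b1, Atp1b2 and Fxyd7 were highest in the unsorted samples, and Atp1b2 and Fxyd1 were near 0 in the MACS-sorted samples.

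Comparison of MACS-sorted with unsorted DRG asks which transcripts go with the cells that pass the column. Of the beta subunit genes, Atp1b3 was higher and Atp1b1 and Atp1b2 were lower in MACS-sorted DRG, and of the Fxyd genes Fxyd2 was higher and Fxyd1 and Fxyd7 were lower. That makes 2 members called higher and 4 called lower, where 8.15% of the 12038 genes tested were called higher and 12.5% lower. A call required an adjusted p-value under 0.05 from limma with Benjamini-Hochberg adjustment over all genes tested, a log2 ratio of group means beyond 0.5 and more than 5 FPKM on average in the group with the higher level. The median log2-fold change was −1.24 over the 7 genes and −0.04 over all genes tested. In the same 2 and 4 genes the groups did not overlap, as was the case upward in 18.4% and downward in 27.8% of all genes tested. In RNA from mixed cells, fewer cells of a type and less RNA per cell cannot be told apart.

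Atp1b1 encodes the most widespread beta subunit and lies on the minus strand at chr1:164437099-164458355 of mm10. It had 605, 607, 576 and 601 FPKM in unsorted replicates 1 to 4 and 301, 239, 275 and 206 FPKM in MACS-sorted replicates 1 to 4. Every MACS-sorted sample lay below every unsorted sample, with means of 255 ± 41.3 and 597 ± 14.3 FPKM (SD, n = 4 each). The log2-fold change on the log2(FPKM + 0.1) scale was −1.24 (standard error, SE, 0.11, limma adjusted p = 2.3e-05). The annotation places 617 bases of Atp1b1 over Nme7 on the opposite strand, and Nme7 was listed at 0 in all 12 samples. The library kit keeps the strand, but whether the estimates used it is not given in the sources used here.

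Atp1b2 encodes a beta subunit that is also known as an adhesion molecule on glia, and its gene spans chr11:69599750-69605960 on the minus strand. The unsorted samples had 35.0, 35.8, 32.1 and 29.5 FPKM, and the MACS-sorted samples 0.443, 0.519, 0.699 and 1.43 FPKM. Its group means thus differed 42.7-fold, at 33.1 ± 2.89 and 0.774 ± 0.453 FPKM (SD, n = 4 each). By limma the log2-fold change was −5.37 (SE 0.28, limma adjusted p = 9.3e-07), the 55th lowest of all genes tested, and −4.29 with a pseudocount of 1.

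Atp1b3, on the minus strand at chr9:96332675-96364299, encodes the third widely expressed beta subunit. In unsorted DRG it was at 193, 197, 171 and 171 FPKM and in MACS-sorted DRG at 314, 343, 305 and 280.0 FPKM. The groups did not overlap, and the means were 183 ± 14.2 and 310.5 ± 25.8 FPKM (SD, n = 4 each). This was a rise of 0.76 on the log2 scale (SE 0.086, limma adjusted p = 8.1e-05), or 1.69-fold. Atp1b1 and Atp1b3 therefore changed in opposite directions, and the ratio of their FPKM within a sample was 3.07 to 3.51 in the unsorted and 0.697 to 0.957 in the MACS-sorted samples.

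Fxyd2, the gamma subunit first known from the kidney, has 3 annotated start sites and lies on the plus strand at chr9:45399709-45410278. Its level was 500.4, 519.9, 528 and 427 FPKM in the unsorted samples and 1477, 2028, 1406 and 1474 FPKM in the MACS-sorted samples. MACS-sorted replicate 2 was above the other 3, and all 4 were above the unsorted samples. From 494 ± 46.1 to 1596 ± 290 FPKM (SD, n = 4 each), Fxyd2 rose by 1.68 on the log2 scale (SE 0.13, limma adjusted p = 9.4e-06), a 3.23-fold difference. This was the 127th highest log2-fold change of the genes tested, and without replicate 2 it was 1.56.

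Fxyd6, a regulator known from the nervous system, lies upstream of Fxyd2 at chr9:45370185-45396159 on the plus strand. The unsorted values were 38.4, 39.2, 31.0 and 35.9 FPKM and the MACS-sorted values 29.5, 66.0, 45.8 and 55.4 FPKM, so that the lowest MACS-sorted sample lay below all unsorted samples and the other 3 above them. The log2-fold change of 0.39 did not pass the test (95% confidence interval −0.09 to 0.87, adjusted p = 0.16 from limma). MACS-sorted replicate 1 decided this, since without it the log2-fold change was 0.61 with an adjusted p of 0.0057 from limma.

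Fxyd1 encodes phospholemman, a pump regulator best known from heart and skeletal muscle, and lies at chr7:31051678-31055656 on the minus strand. It was at 59.3, 55.8, 50.5 and 48.1 FPKM in unsorted DRG, was listed at 0 in MACS-sorted replicate 1, and reached 0.360, 0.426 and 3.10 FPKM in replicates 2 to 4 of that group. The highest MACS-sorted sample was thus at 5.80% of the unsorted mean. The group means were 53.4 FPKM in unsorted and 0.972 FPKM in MACS-sorted DRG, a log2 ratio of −5.78. The fitted log2-fold change was −6.66 (SE 0.82, limma adjusted p = 1.3e-04), the 12th lowest of the genes tested. Its size depends on the low values: it was −5.86 without MACS-sorted replicate 1, −7.53 without MACS-sorted replicate 4 and −5.01 with a pseudocount of 1.

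Fxyd7, a regulator described in the brain, lies next to Fxyd1 at chr7:31042515-31051454 on the minus strand. Its values were 196, 191, 187 and 179 FPKM in unsorted and 48.2, 20.7, 34.4 and 38.2 FPKM in MACS-sorted replicates 1 to 4. In contrast to Fxyd1 it was still well above 0 in every MACS-sorted sample, at 10.99% to 25.6% of the unsorted mean. The means were 188 ± 6.75 and 35.4 ± 11.4 FPKM (SD, n = 4 each), and the log2-fold change was −2.47 (SE 0.21, limma adjusted p = 1.5e-05).

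**Figure D2:**
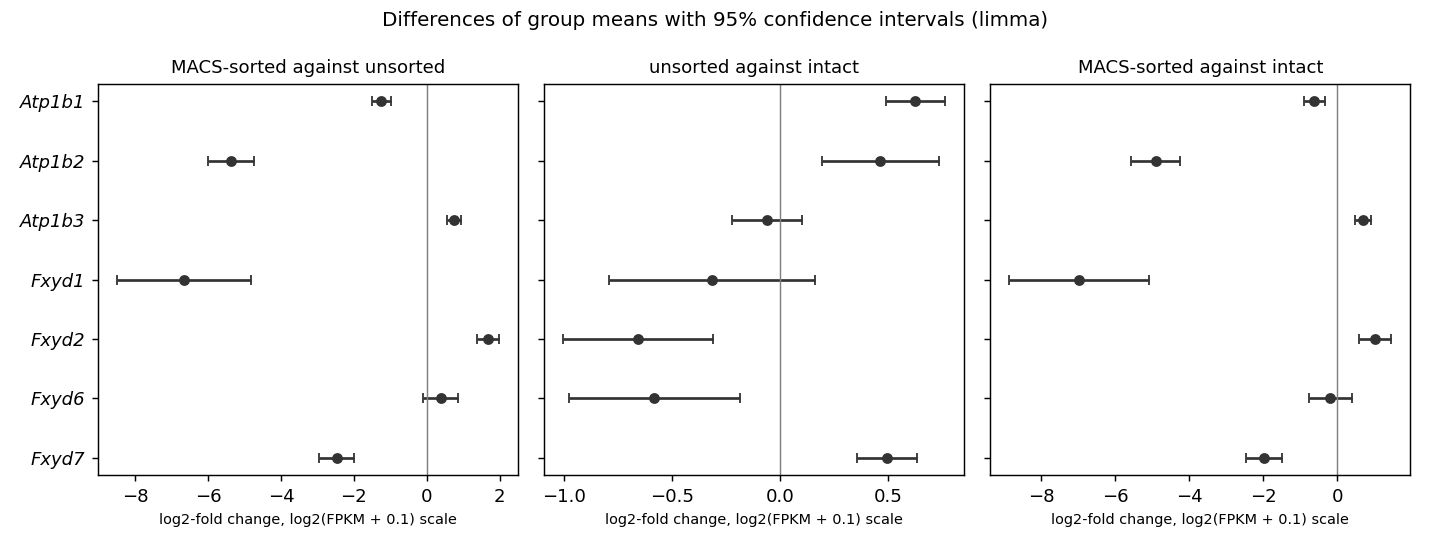
Log2-fold changes on the log2(FPKM + 0.1) scale (horizontal axes, which differ between panels) of the 7 genes in the 3 comparisons, with points for the difference of group means and bars for the 95% confidence interval from limma. Between MACS-sorted and unsorted DRG only the interval of Fxyd6 includes 0, and between unsorted and intact DRG those of Atp1b3 and Fxyd1 include 0.

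The composition of each family differed accordingly, and it is given here as a description per sample. Of the summed FPKM of the beta subunit genes, Atp1b1 made up 72.2% to 75.0% in the unsorted and 41.0% to 48.9% in the MACS-sorted samples. Atp1b3 made up 21.4% to 23.5% in the unsorted and 51.1% to 58.9% in the MACS-sorted samples, and Atp1b2 made up 3.68% to 4.26% and at most 0.294%, respectively. The summed FPKM itself was 779 to 840 in the unsorted and 488 to 615 in the MACS-sorted samples. Among the Fxyd genes, Fxyd2 accounted for 61.8% to 66.3% of the sum in unsorted and for 93.8% to 95.9% in MACS-sorted DRG. Fxyd7 had 23.5% to 26.0% of the Fxyd sum in unsorted and 0.978% to 3.10% in MACS-sorted DRG. Within a sample, Fxyd2 was 2.38 to 2.82 times as high as Fxyd7 in unsorted, 4.89 to 7.88 times in intact and 30.6 to 98.0 times in MACS-sorted DRG.

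**Figure D3:**
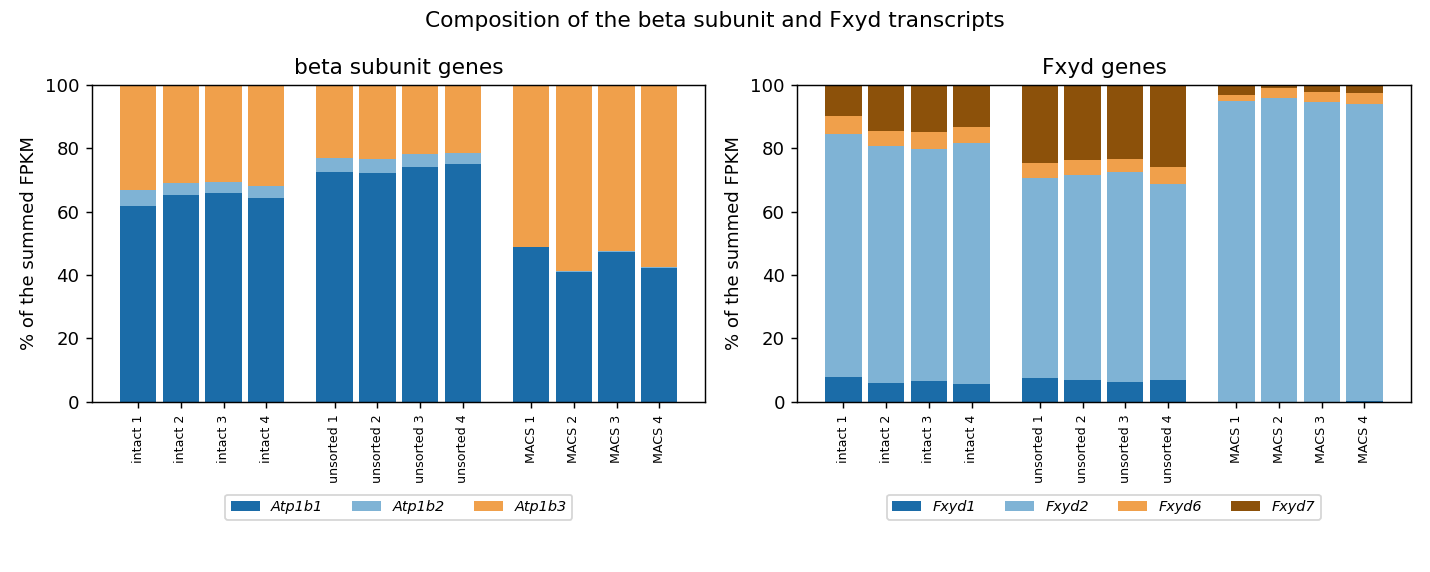
Share of each gene in the summed FPKM of the beta subunit genes (left) and of the 4 Fxyd genes (right), in percent, with one bar per sample. Atp1b3 takes at least 51.1% of the beta subunit sum in each MACS-sorted sample and at most 33.2% elsewhere, and Fxyd2 takes at least 93.8% of the Fxyd sum in the MACS-sorted samples.

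Markers of other cells moved in the same comparison. The summed FPKM of 8 satellite glia markers was 2266 to 2847 in the unsorted and 90.6 to 209 in the MACS-sorted samples, 7 of the 8 were called lower, and none was listed at 0 in MACS-sorted DRG. For the 7 Schwann cell markers, of which 6 were called lower, the sums were 1916 to 3160 and 518 to 1198 FPKM. Mag, a myelin glycoprotein, was listed at 0 in MACS-sorted replicate 2. Markers of large-diameter neurons also fell, with 7 of 8 called lower and sums of 813 to 1020 FPKM in unsorted and 81.7 to 158.5 FPKM in MACS-sorted DRG, and none at 0. Of 10 small-diameter nociceptor markers, 9 were called higher (2581 to 2711 against 3052 to 4238 FPKM), and of 8 pan-neuronal markers 1 was called higher and 1 lower (4032 to 4337 against 3555 to 4538 FPKM). The study lists those 9 nociceptor markers as enriched in MACS-sorted over unsorted DRG in these same samples. Their count is therefore no separate evidence that nociceptors were enriched.

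The levels left after sorting fell into different ranges for the depleted members. In MACS-sorted replicates 1 to 4, Atp1b2 was at 1.34%, 1.57%, 2.11% and 4.34% of the unsorted mean, and the summed satellite glia markers were at 4.64%, 3.49%, 5.09% and 8.04%. Most of the satellite glia sum was Glul, at 104, 82.3, 105 and 111 FPKM. The ratio of the MACS-sorted to the unsorted mean was 0.0234 for Atp1b2. Single satellite glia markers lay on both sides of it, with Glul at 0.67, Gja1 at 0.226, Apoe at 0.0122 and Kcnj10 at 0.0058. Among the MACS-sorted samples, Fxyd1 and Atp1b2 were highest in replicate 4, as were the summed markers of satellite glia, Schwann cells, fibroblasts, endothelial cells, macrophages, red blood cells and skeletal muscle. Fxyd7 (25.6%, 10.99%, 18.3% and 20.3%) and Atp1b1 (50.4%, 40.0%, 46.1% and 34.5%) were instead highest in replicate 1, as were the summed large-diameter neuron markers (17.6%, 9.06%, 14.2% and 12.7%). Most of that sum was Nefh, a neurofilament subunit, at 102, 54.2, 81.9 and 68.2 FPKM. The markers did not all share this order, since Ntrk3, the receptor of neurotrophin-3, was lowest in replicate 1 at 6.53, 8.81, 9.39 and 9.72 FPKM. A peak in replicate 1 was not particular to large-diameter neurons. The nociceptor markers Calca, Trpv1, P2rx3, Tac1, Scn10a and Scn11a were also highest there, with Scn11a at 275, 249, 269 and 193 FPKM. Ret, Prph, Mrgprd and Trpa1 were highest in replicate 2, as were the summed nociceptor and the summed pan-neuronal markers. These sums were, like Atp1b1, lowest in replicate 4. Of the other lists, 6 of 7 fibroblast markers were called lower, with Lum, a proteoglycan of connective tissue, listed at 0 in MACS-sorted replicates 1 to 3. Of 6 endothelial markers, limma called 0 (1 was lower at an unadjusted p under 0.05), 1 of the 2 macrophage markers tested was called lower, and 8 of the 9 red blood cell markers tested were called higher. The part of these cell types in the results was not tested.

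**Figure D4:**
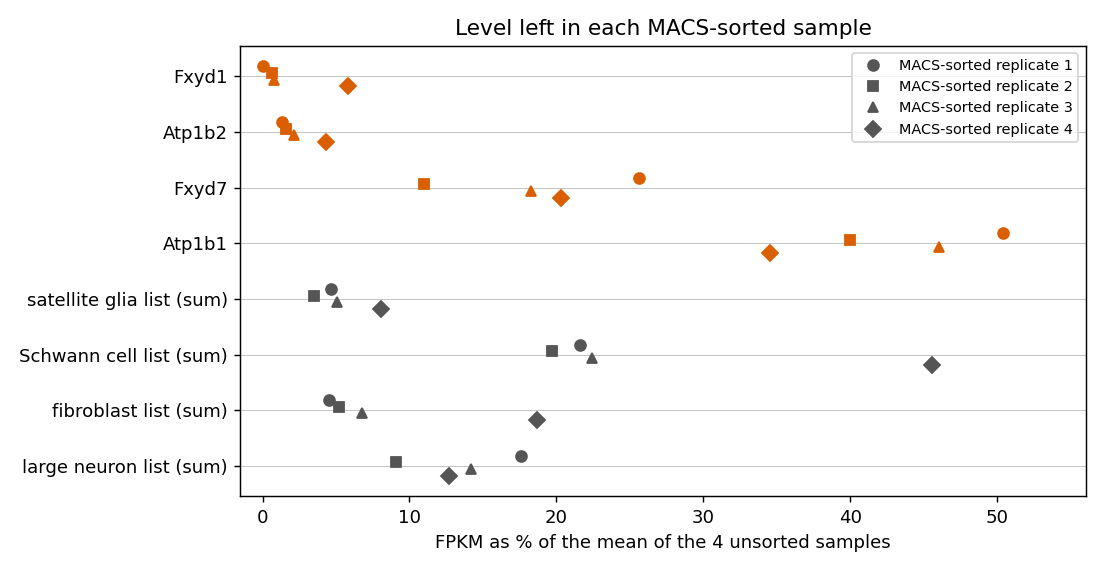
FPKM in each MACS-sorted sample as a percentage of the mean of the 4 unsorted samples (horizontal axis, linear), for the 4 depleted genes in orange and for summed marker lists in grey, with a symbol for each replicate. Fxyd1 and Atp1b2 lie at or below 5.80%, Fxyd7 lies between 10.99% and 25.6% and Atp1b1 between 34.5% and 50.4%.

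Unsorted and intact DRG differ by the dissociation, and by what tissue is lost or altered in it. In unsorted DRG, Atp1b1 was higher and Fxyd2 and Fxyd6 were lower than in intact DRG. Thus 1 member was called higher and 2 lower, where 4.29% of 12392 genes tested were called higher and 2.76% lower. The samples of Atp1b1 and Fxyd7 were separated upward and those of Fxyd2 and Fxyd6 downward, as were 20.8% and 12% of all genes tested. The median log2-fold change was −0.06 over the members and 0.01 over all genes tested. Unsorted samples serve in this comparison and in the previous one, so values high in the unsorted samples contribute to both.

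Atp1b1 was at 369, 393, 405 and 380.2 FPKM in intact replicates 1 to 4, below all unsorted samples. It rose by 0.63 on the log2 scale (SE 0.061, limma adjusted p = 0.0012), or 1.54-fold. Fxyd7 had 134, 128, 134 and 139 FPKM in intact DRG and was likewise higher in every unsorted sample. Its log2-fold change of 0.49 (SE 0.061, limma adjusted p = 0.0022) passed the test, but the log2 ratio of its means, 0.495, was just under the criterion of 0.5, which was met without intact replicate 4 or unsorted replicate 4. Atp1b2, with intact values of 30.3, 22.3, 21.9 and 21.9 FPKM, also passed the test without reaching the ratio, at a log2-fold change of 0.47 (adjusted p = 0.026 from limma). Intact replicate 1 overlapped the unsorted samples of Atp1b2, and without it the log2-fold change was 0.58 and met the criteria, as it did at 0.52 without unsorted replicate 4.

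Fxyd2 was at 1055, 660.3, 654 and 794 FPKM in intact DRG, above every unsorted sample. It fell by 0.66 on the log2 scale (SE 0.15, limma adjusted p = 0.019), and its log2-fold change was −0.51 without intact replicate 1. Without unsorted replicate 4 the adjusted p from limma was 0.055 and the call was lost. Fxyd6, at 78.5, 43.7, 47.0 and 52.2 FPKM in intact DRG, also lay above every unsorted sample. Its fall of 0.58 (SE 0.17, limma adjusted p = 0.042) met the criteria only narrowly, and the call was lost on leaving out any of intact replicates 1, 3 and 4 or any of the unsorted replicates. Without unsorted replicate 4 neither was called lower and 3 members were called higher, where 450 of 12410 genes tested were called higher and 187 lower.

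The levels of Fxyd1 in intact DRG were 108, 51.3, 59.0 and 58.7 FPKM, with replicate 1 far above the others and the other 3 within the range of the unsorted samples. Its log2-fold change was −0.31 (95% confidence interval −0.79 to 0.16, adjusted p = 0.30 from limma), and −0.08 without intact replicate 1. Replicate 1 is the sample with the high sum of skeletal muscle markers, whose part in the level of Fxyd1 was not tested. Atp1b3 was at 198, 187, 189 and 189.7 FPKM, inside the range of the unsorted samples or just above it, with a log2-fold change of −0.06 (95% confidence interval −0.22 to 0.10, adjusted p = 0.56 from limma). In the same comparison 5 of 8 large-diameter neuron markers and 3 of 8 satellite glia markers were called higher in unsorted DRG, and 6 of 7 fibroblast markers were called lower. Of the other lists, 3 of 6 endothelial markers were called higher, and 2 of 6 macrophage markers and 6 of the 7 skeletal muscle markers tested were called lower. Of 10 small-diameter nociceptor, 8 pan-neuronal, 7 Schwann cell and 5 tested red blood cell markers, limma called 0. By a limma adjusted p under 0.05 alone, 2 nociceptor and 4 pan-neuronal markers were higher and 1 nociceptor marker was lower. At an unadjusted p under 0.05 from limma, 2 Schwann cell markers were lower. The sums were 571 to 763 against 813 to 1020 FPKM for large-diameter neurons, 1772 to 2092 against 2266 to 2847 FPKM for satellite glia, and 603 to 1136 against 187 to 408 FPKM for fibroblasts. They were 35.5 to 43.5 against 53.4 to 67.8 FPKM for endothelial cells, 38.9 to 87.8 against 14.9 to 30.4 FPKM for macrophages and 15.9 to 2758 against 0.711 to 8.45 FPKM for skeletal muscle. Their part in the differences of the members was not tested.

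Comparison of MACS-sorted with intact DRG shares its samples with both comparisons above. It gave 2 members called higher and 4 called lower, where 7.54% of 12234 genes tested were called higher and 10.7% lower. Fxyd2 was higher by 1.03 on the log2 scale (SE 0.20, limma adjusted p = 0.0030) and Atp1b3 by 0.70 (SE 0.097, limma adjusted p = 4.8e-04). Atp1b1 fell by 0.61 (adjusted p = 0.0055 from limma). The log2-fold changes were −1.98 for Fxyd7, −4.90 for Atp1b2 and −6.97 for Fxyd1 (limma adjusted p = 1.2e-04, 6.9e-06 and 2.1e-04). With a pseudocount of 1 they were −3.84 for Atp1b2 and −5.32 for Fxyd1, and for Fxyd1 the estimate was −6.17 without MACS-sorted replicate 1 and −7.84 without MACS-sorted replicate 4. The difference of Fxyd6 did not pass the test, with a log2-fold change of −0.19 (95% confidence interval −0.77 to 0.39, adjusted p = 0.60 from limma). The median over the members was −0.61 and that over all genes tested −0.04. For all members but Fxyd6, the intact and MACS-sorted samples did not overlap, and this was the case upward in 15.6% and downward in 21.9% of all genes tested.

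The members lie in 5 places of the genome, and 4 of them form pairs of neighbours. Fxyd7 and Fxyd1 are transcribed in the same direction on chromosome 7 with 223 bases between them, and Fxyd5, another Fxyd gene, lies 183 bases on the other side of Fxyd7. Along this stretch the levels differed from gene to gene: MACS-sorted DRG had at most 3.10 FPKM of Fxyd1, 20.7 to 48.2 FPKM of Fxyd7 and 3.53 to 6.36 FPKM of Fxyd5. Lgi4, which encodes a secreted protein known from Schwann cells and begins 4278 bases from Fxyd1 on the opposite strand, was at 20.8 to 22.1 FPKM in unsorted and 0.0222 to 2.38 FPKM in MACS-sorted DRG. On chromosome 9, 3549 bases separate Fxyd6 from Fxyd2. Within a sample the level of Fxyd2 was 13.4 to 15.2 times that of Fxyd6 in intact DRG, 11.9 to 17.1 times that in unsorted DRG and 26.6 to 50.1 times in MACS-sorted DRG.

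For each member the gene with the most similar pattern was sought, as the smallest root mean square difference between log2(FPKM + 0.1) values centred on the gene's mean over the 12 samples, among the 12282 genes whose mean was 1 FPKM or more. The measure is a description, and all genes share the same 12 libraries. Atp1b3 was nearest to Tspan14, a tetraspanin, with a difference of 0.0499, and Atp1b1 to Tnfrsf21, a death receptor, with 0.0954. Fxyd7 was nearest to Sulf2, a sulfatase of heparan sulfate, with 0.138. Fxyd2 was nearest to Ccdc68, with 0.153, followed by Ppp1r1a and Rgs10. Fxyd6 was nearest to Tspo, a protein of the outer mitochondrial membrane, with 0.173. The glial transcription factor Sox2 was nearest to Atp1b2, with 0.227. Fxyd1 had no close neighbour by comparison, and Ttyh1 came nearest to it, with 0.556. The MACS-sorted values of Fxyd1, from a listed 0 to 3.10 FPKM, spread widely on this log2 scale. Its larger distances may reflect these low values and say little about its pattern. Among the members themselves, Atp1b3 and Fxyd2 were the closest pair, with a difference of 0.421, and Fxyd1 and Fxyd2 the farthest, with 3.99.

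The remaining genes of these families and a list of 22 related genes place the members among other ion transporters. Fxyd5, which encodes dysadherin, was called lower in MACS-sorted than in unsorted DRG, with a log2-fold change of −0.82 (adjusted p = 0.0089 from limma), and lower in unsorted than in intact DRG. Fxyd4 and Atp1b4 were at most 0.305 FPKM in any sample. Fxyd3 was listed at 0 in 10 samples and was at 29.9 FPKM in intact replicate 1 and 2.66 FPKM in MACS-sorted replicate 4. The list of related genes holds the Nkain genes, whose products interact with beta subunits, the gastric and colonic proton pumps, the calcium pumps and the sodium exchangers. Of these, 15 were tested between MACS-sorted and unsorted DRG, 1 was called higher and 7 lower. Nkain1 was higher at 9.82, 13.8, 10.4 and 6.36 against 4.53 to 4.91 FPKM, a log2-fold change of 1.03 (adjusted p = 0.0019 from limma). Nkain4 was lower at 0.0827 to 0.344 against 6.48 to 9.68 FPKM, a log2-fold change of −4.59 (adjusted p = 2.7e-06 from limma).

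Among the other genes of the list called lower in MACS-sorted DRG were Nkain2, the plasma membrane calcium pumps Atp2b2 and Atp2b3, the calcium pump of the endoplasmic reticulum Atp2a2 and the sodium-calcium exchanger Slc8a3, with log2-fold changes from −1.89 to −0.83. Atp2b1, the calcium pump with the highest level among the plasma membrane forms, was at 47.4 and 49.0 FPKM by group means and did not pass the test (log2-fold change −0.05, adjusted p = 0.54 from limma). Between unsorted and intact DRG 16 genes of the list were tested. Atp2b2, Atp2b3 and Atp2a2 were called higher in unsorted DRG, and Nkain1 and Atp2a1 were called lower. Atp2a1, the calcium pump of fast skeletal muscle, had 193 FPKM in intact replicate 1, whereas the other intact samples had 0.735 to 4.77 FPKM. Between MACS-sorted and intact DRG 17 were tested, of which limma called 0 higher (3 at an unadjusted p under 0.05) and 3 lower. Nkain1, at a log2-fold change of 0.47 there, had an adjusted p of 0.11 from limma.

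The balance of calls over the whole table depends on the scaling. The FPKM as deposited gave 981 genes higher and 1505 lower in MACS-sorted than in unsorted DRG, median-ratio size factors 1188 and 1340, and quantile normalization 1382 and 1285, with the median log2-fold change of all genes at 0.10. Under each of these scalings, and without the MACS-sorted replicates 3 and 4 that held the most haemoglobin RNA, Atp1b3 and Fxyd2 were called higher and Atp1b1, Atp1b2, Fxyd1 and Fxyd7 lower. Without those replicates the log2-fold change of Fxyd1 was −7.96.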

How the data were processed

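The authors extracted RNA from intact, unsorted and MACS-sorted DRG, prepared directional libraries from polyadenylated RNA and sequenced 100 base reads. Alignment to mm10 was done with TopHat2, SAMtools joined the lanes of a sample and Cufflinks 2.1.1 estimated expression. The deposited values are FPKM for 24490 genes in 12 samples, and every column was used. Fragment counts and the depth of each sample are not part of these values, so no counting interval is given, and the spread between replicates is the error. A gene listed at 0 may be a failed estimate.

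Groups were taken from the sample labels and compared with limma 3.58.1 (R 4.3.3) on log2(FPKM + 0.1), two-sided, with an intensity trend and Benjamini-Hochberg adjustment. Each fit held the 8 samples compared and every gene averaging 1 FPKM or more in these samples. The study's criteria were kept, with limma in place of CuffDiff, which needs reads. Adding 0.1 FPKM shrinks the log2-fold changes of genes with low FPKM. The fit averages log values, so uneven low values can also give a larger change than the group means do. For Fxyd1 between MACS-sorted and unsorted DRG the fit gave −6.66, and the log2 ratio of means was −5.78. Errors are SDs over the 4 samples of a group.

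The genes named are the 7 members, the other Fxyd and beta subunit genes, the list of 22 related genes, neighbours within 20 kb, the 3 genes nearest in pattern to each member and markers of cell types that moved with a member. Of the nearest genes, the first is named for each member, and for Fxyd2 the next 2 as well. The members and lists were chosen with earlier results of these data known. Results for some genes of the pump and of the related list are not reported here. Gene positions are those of the deposited table, with starts shifted by 1 to count from 1, and coding sequences and strands are from GENCODE M21. Coding sequences were aligned with Biopython 1.88.

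The fits were tested on simulated data with changes of a single size. The check therefore does not cover calls near the limit on the log2 ratio. Nor does it cover changes as large as those of Atp1b2 and Fxyd1 in MACS-sorted DRG. Noise was drawn independently for each gene and sample, with the same SD in both groups. Shifts shared by many genes of a sample, as in intact replicate 1, are therefore not covered by the numbers of false calls. In the simulated data 200 genes were changed by 1.5 on the log2 scale. Of these, 93.5% were called in the right direction for MACS-sorted against unsorted (6 false calls among 12168 genes), 98.0% for unsorted against intact (4 of 12484) and 94.5% for MACS-sorted against intact samples (6 of 12415). Alternatives covered pseudocounts, filters on low values, a fit of all 12 samples, a replicate block, limma without the trend, scaling between samples, the criteria for a call and the omission of samples.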

Additional observations from a re-analysis of the deposited data

Results flagged for a closer look

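In groups of 4 samples, Dixon's test at the 95% level marked a sample that stood apart in 7 of the 26 groups tested. These groups covered the members, Fxyd3 and Fxyd5, and left out Fxyd4 and Atp1b4. Chance marks about 1 in 20 groups, but 2 of the 7 are groups of Fxyd3 with 3 samples listed at 0, in which a lone value above 0 is always marked, so the count is not set against that share. Of these 7, 4 belong to intact replicate 1. Its level was 30.3 FPKM for Atp1b2 (21.9 to 22.3 FPKM in the other intact samples), 108 FPKM for Fxyd1 (51.3 to 59.0 FPKM), 23.3 FPKM for Fxyd5 (11.8 to 13.2 FPKM) and 29.9 FPKM for Fxyd3 (listed at 0 in the others). MACS-sorted replicate 4 stood apart for Fxyd1, at 3.10 FPKM against values up to 0.426 FPKM in replicates 1 to 3, and for Fxyd3, at 2.66 FPKM against a listed 0. In MACS-sorted replicate 2, Fxyd2 was at 2028 FPKM and in the other MACS-sorted samples at 1406 to 1477 FPKM.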

How the results depend on the processing

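Each value was recomputed under the alternatives named in the processing. The counts of members called were 2 higher and 4 lower between MACS-sorted and unsorted DRG, 1 and 2 between unsorted and intact DRG, and 2 and 4 between MACS-sorted and intact DRG. With a log2 ratio beyond 1 in place of 0.5, the numbers called higher were 1, 0 and 1 in these comparisons, and the numbers called lower were 4, 0 and 3. Of the 12038, 12392 and 12234 genes tested, 260, 42 and 186 were then called higher and 879, 123 and 825 lower. The number called lower between unsorted and intact DRG was 1 with no filter on low values, with all 12 samples in one fit, without the trend and with unsorted replicates 1 and 2 averaged. Of all genes, 294, 245, 312 and 237 were called lower under these settings, of 18061, 12392, 12392 and 12401 tested. Leaving out 1 sample at a time gave 1 to 3 members called higher and 0 to 2 called lower in that comparison. Of all genes, 376 to 591 were then called higher and 187 to 334 lower, of 12294 to 12423 tested. For Fxyd6 between MACS-sorted and intact DRG, omitting 1 sample gave log2-fold changes from −0.35 to 0.034 around the −0.19 of all samples. The sign changed without MACS-sorted replicate 1 (limma adjusted p = 0.92, and 0.34 to 0.98 over all alternatives). The cause of these changes was not tested, beyond the fewer samples or stricter limit that the alternatives themselves bring. Among the fold changes of single members under an alternative, 424 kept direction and side of the threshold, 18 lost a call, 5 gained one and 1 reversed.

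Samples of the same replicate number did not deviate together, with correlations of −0.143 to 0.0671 between groups, so the numbers are not taken as pairs. A fit with the replicate block gave 2 higher and 4 lower, 1 and 2, and 2 and 4 members, as without it, and 991 and 1516 genes called higher and lower between MACS-sorted and unsorted DRG. Between unsorted and intact DRG that fit called 541 and 358 genes, and between MACS-sorted and intact DRG 915 and 1314. The values give only a relative depth of the samples, 4 samples a group set the precision, and gene-level FPKM does not separate the 3 start sites of Fxyd2.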
